A study of Mus musculus with 2 samples.

Results

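The cells described here are bone marrow progenitors whose mRNA held Cpa3, Hdc and Cebpe at the same time while the abundant granule mRNAs of basophils, eosinophils and late neutrophils were low. They were chosen from kept barcodes, which had at least 1000 detected genes and under 10% of their unique molecular identifiers (UMIs, each standing for 1 captured mRNA molecule) from mitochondrial genes. A kept barcode was a member if it held at least 2 UMIs of Cpa3, at least 2 of Hdc and at least 1 of Cebpe. In addition, Prss34 plus Mcpt8 had to stay under 0.1% of its UMIs, Prg2 plus Epx under 0.2%, and Camp, Ngp, Ltf and Lcn2 together under 0.05%. This gave 780 members among 14083 kept barcodes, with 290 of 6080 in the Trsp knockout library and 490 of 8003 in the control library. The values of these 11 rule genes chose the members and are given as a description.

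The series compared single-cell RNA libraries of Lineage-, cKit+ cells, the fraction of bone marrow that holds stem and progenitor cells. The marrow came from the femora and tibiae of mice of the C57BL/6 strain. The knockout library came from Trsp f/f:Mx1-Cre mice and the control library from Trsp f/f mice, which carry the same floxed allele without Cre. Trsp encodes the tRNA that brings selenocysteine into proteins, and Mx1-Cre is switched on by interferon, in marrow and in other tissues. Both genotypes had received 3 doses of pI-pC, which induces interferon, on alternating days at 500 µg per mouse. The injections are dated to 7 weeks after birth and cell collection to 9 weeks after the last one, and the cells had been frozen and thawed. Each genotype was 1 library, and the sources used here do not give how many mice it held, so no difference below has a test. Intervals are exact 95% intervals and cover counting error only, and in summed cells, fewer copies per cell cannot be told apart from a different mix of cells.

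Neutrophils, eosinophils, basophils and mast cells arise from shared marrow progenitors, and their precursors begin to make granule contents before they mature. Hdc makes histamine from histidine, and Cpa3 is a carboxypeptidase that mast cells and basophils store in granules. Cebpe is a transcription factor required for eosinophil and late neutrophil granule genes, and Gata2 is a transcription factor of basophils, mast cells and early progenitors. Elane, Prtn3, Ctsg and Mpo encode the enzymes of primary granules, which neutrophil precursors fill first.

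Members made up 4.77% of kept barcodes in the knockout library (4.25 to 5.34) and 6.12% in the control library (5.61 to 6.67), a log2 ratio of shares of -0.36 (-0.57 to -0.15). A rule in UMIs is met more easily by a deep barcode, and depth differed between the libraries. Members held a median of 29026 UMIs in the knockout library, from 7627 to 87342, and a median of 25347 in the control library, from 9788 to 75829. Among all kept barcodes the medians were 22444 and 20634 UMIs, and the lowest 5% of kept knockout barcodes held under 2994 UMIs, against under 8504 in control. Every kept barcode of at least 10000 UMIs was then thinned to 10000 before the rule, which left out 858 knockout and 680 control barcodes. Of the rest, 123 of 5222 knockout barcodes (2.36%) and 184 of 7323 control barcodes (2.51%) qualified, and the log2 ratio was -0.09. These shares are of the deeper barcodes only. What part depth had in the difference of shares was not tested further. Among members together with the Cebpe-zero cells, basophil or mast side and eosinophil side defined below, members were 43.2% in the knockout library (39.4 to 47.1) and 43.1% in control (40.2 to 46.1).

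Just inside the rule, 37 knockout and 57 control members held 2 UMIs of Cpa3, and 108 and 137 barcodes stayed outside with 1 UMI. Exactly 1 UMI of Cebpe was found in 49 knockout and 84 control members, and 182 and 319 barcodes met every other criterion with 0. For Prss34 plus Mcpt8 the highest members stood at 0.0954% and 0.0930% of UMIs, and the nearest barcodes outside at 0.113% and 0.108%. Median mitochondrial shares of members were 4.31% in the knockout library and 3.68% in control. The files of both libraries shared 39 barcode sequences, of which 0 were members in both. Scrublet scores in the highest 5% of each library marked 23 knockout members (7.93%) and 53 control members (10.8%), against 4.72% and 4.80% of kept barcodes. Below the barcode filter, 1 of 5476 knockout and 5 of 6369 control barcodes met the gene criteria.

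The label names Hdc, Cpa3, Cebpe and Fcgr2b as markers, and of these the rule did not use Fcgr2b, the inhibitory IgG receptor. Fcgr2b stood at 73.7 CPM (UMIs of a gene scaled to 1000000 UMIs of the summed cells) in knockout members and 49.6 in control members, against 33.6 and 27.6 CPM in the other kept barcodes of the same libraries. It did not single the members out, since it stood at 79.8 and 55.3 CPM in the basophil or mast side and at 84.2 and 55.1 CPM in the eosinophil side. After each cell was thinned to 5000 UMIs, 30.3% of knockout and 22.2% of control members held a Fcgr2b UMI, against 0 of 21 and 3 of 42 B or plasma cells. Those were kept barcodes with at least 3 UMIs of Cd79a, at least 2 of Cd79b and 0 of Vpreb1 and Dntt, at median depths of 26633 and 25477.5 UMIs. B cells are known to express Fcgr2b themselves. Among T or NK cells, kept barcodes with at least 3 UMIs of Cd3e, Cd3d, Cd3g and Trbc2 together and Mpo under 0.1% of UMIs, the thinned shares for Fcgr2b were 0 of 9 and 0 of 10, at median depths of 8046 and 7854 UMIs before thinning. Before thinning the shares were 81.4% and 72.0% of members, against 28.6% of B or plasma cells in each library. Cpa3, used by the rule, stood at 399.5 CPM in knockout and 481 CPM in control members, Hdc at 211 and 198 CPM, and Cebpe at 220.2 and 221 CPM. The defining mRNAs of mature mast cell granules, Mcpt4, Cma1, Tpsab1 and Tpsb2, were at 0 UMIs in members of both libraries. Mcpt8, the basophil protease limited by the rule, stood at 55.7 and 81.9 CPM.

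The neighbouring cell sets were defined by the same kind of rule for comparison. Cebpe-zero cells met the whole rule except that they held 0 Cebpe UMIs (182 knockout, 319 control). The basophil or mast side held Cpa3 with Prss34 plus Mcpt8 at 0.1% or more (143 and 225), and the eosinophil side held Prg2 plus Epx at 0.2% or more (56 and 102). The early neutrophil side held Cebpe and at least 0.2% of Elane, Prtn3 and Ctsg with 0 UMIs of Cpa3 and Hdc (227 and 421). These sets were chosen by expression, so differences between them are descriptions.

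Members carried far more primary granule mRNA than the Cebpe-zero cells. The 14 genes of that list made up 2.02% of UMIs in knockout and 2.20% in control members, 0.875% and 0.969% in Cebpe-zero cells, 1.29% and 1.31% on the basophil or mast side, and 2.30% and 3.13% on the early neutrophil side. Elane, the neutrophil elastase, stood at 3303 CPM in knockout and 3653 CPM in control members, against 499 and 669 CPM in Cebpe-zero cells and 4494 and 7575 CPM on the early neutrophil side. Mpo, myeloperoxidase, reached 6727 and 6910 CPM in members, close to its 6511 and 7160.2 CPM on the early neutrophil side, and 2861 and 3106 CPM in Cebpe-zero cells. Members sat near the early neutrophil side in Mpo in both libraries, and below it in Elane. Elane, Prtn3 and Ctsg are among the 14 genes and were also used to choose the early neutrophil side. The high level of these genes there follows in part from that rule. S100a8, a calcium-binding protein of later neutrophil stages, was lower in members, at 101 and 85.4 CPM against 639 and 958 CPM on the early neutrophil side.

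Summed over their list, basophil and mast genes ran the other way. The basophil and mast list without rule genes made up 0.0827% and 0.0908% of UMIs in knockout and control members, 0.307% and 0.278% in Cebpe-zero cells, 0.583% and 0.571% on the basophil or mast side, and 0.0341% and 0.0311% on the early neutrophil side. Gata2 stood at 80.1 and 76.5 CPM in members, against 413 and 337 CPM in Cebpe-zero cells and 769.6 and 704 CPM on the basophil or mast side. Ms4a2, the beta chain of the high-affinity IgE receptor, stood at 17.0 and 34.8 CPM in members and at 289.7 and 269.7 CPM in Cebpe-zero cells. Fcer1a, the alpha chain of that receptor, was at 0.457 and 1.96 CPM in members, 54.6 and 34.7 CPM in Cebpe-zero cells, and 571 and 474 CPM on the basophil or mast side. In each of these genes the order in both libraries was basophil or mast side, then Cebpe-zero cells, then members. Kit, on the same list, did not follow this order in the knockout library. After thinning, 44.8% of knockout members and 30.8% of the knockout basophil or mast side held a Kit UMI.

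Eosinophil mRNAs were lower in members than on the eosinophil side, which was chosen on Prg2 and Epx. The eosinophil list without rule genes made up 0.00634% and 0.00732% of UMIs in knockout and control members. It made up 0.218% and 0.213% on the eosinophil side and 0.00631% and 0.00701% in the other kept barcodes. Siglecf, on this list, was at 22.2 and 22.3 CPM in members and 8.07 and 8.49 CPM in the other kept barcodes. Il5ra, the interleukin-5 receptor chain of eosinophil progenitors, stood at 1.60 and 1.80 CPM, against 54.5 and 30.3 CPM on the eosinophil side. Prg3, an eosinophil granule protein outside the rule, stood at 26.8 CPM in knockout and 35.9 CPM in control members, against 1488 and 1549 CPM on the eosinophil side and 0.247 and 1.502 CPM in Cebpe-zero cells. Prg2 UMIs were found in 9.31% of knockout and 11.4% of control members after thinning, and in 28.3% and 35.1% before it. The comparison cells differed widely, with 81.0% of thinned B or plasma cells of either library and 0 of 9 and 2 of 10 thinned T or NK cells, so no background share was set for Prg2. Gfi1, a repressor needed for neutrophil development, had its highest level of these 5 sets in members, at 66.0 and 52.0 CPM, followed by the early neutrophil side at 42.6 and 43.5 CPM, while the basophil or mast side held 9.22 and 12.8 CPM. Irf8, a monocyte and dendritic cell factor, was low in members at 38.1 and 58.2 CPM, against 364 and 251 CPM on the early neutrophil side.

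**Figure D1:**
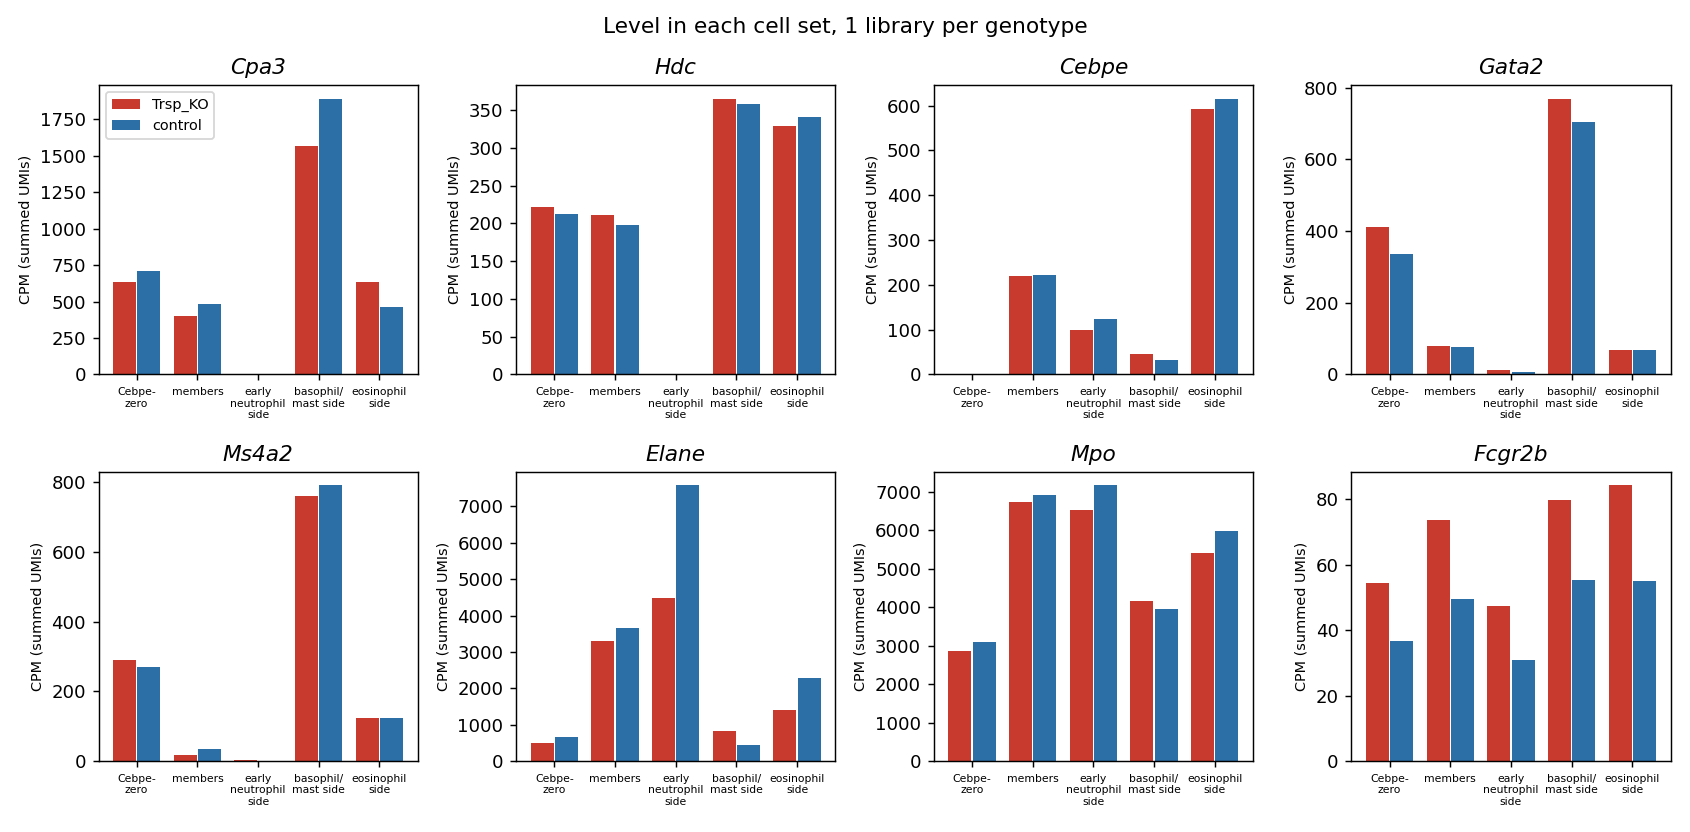
Level in CPM (UMIs of the gene over all UMIs of the summed cells) of 8 genes in 5 cell sets, with the Trsp knockout library in red and the control library in blue, 1 library each. Members lie between the Cebpe-zero cells and the early neutrophil side in Elane and Gata2 in both libraries. Cpa3, Hdc and Cebpe were used to define the sets. Elane, with Prtn3 and Ctsg, was used to define the early neutrophil side, so its high Elane follows in part from its rule.

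Besides the rule genes, the genes with the largest ratio of members over all other kept barcodes, ranked by the smaller of both libraries' ratios, were led by Slc7a8, a neutral amino acid transporter. Its level was 31.1 CPM in knockout and 29.9 CPM in control members, against 8.40 and 8.18 CPM in the other kept barcodes, log2 ratios of 1.89 and 1.87. Slc7a8 (mm10, chromosome 14, 54722209 to 54781946, minus strand) lies next to Cebpe (chromosome 14, 54710360 to 54712174, minus strand), and reads running from one into the other were not examined. Zbtb16, a transcription factor, followed with log2 ratios of 1.56 and 1.54, and Siglecf, a sialic acid-binding lectin known from mature eosinophils, with 1.46 and 1.39. Vat1, Mdga1, Ikzf2, Dach1, Tfr2, Lpcat2, Ablim1, Irak3, Xylt1, Slco3a1, Deptor, Fut8 and Cd63 were also among the 20 leading genes. Cd63, a granule membrane tetraspanin, was at 765 and 651 CPM in members against 364 and 336 CPM in the other kept barcodes. Of the 17 leading genes outside the rule, 9 stood higher on the basophil or mast side than in members in both libraries, 12 on the eosinophil side, 10 in Cebpe-zero cells and 0 on the early neutrophil side. Slc7a8 was at 84.4 and 70.1 CPM on the basophil or mast side, and Ikzf2, a lymphoid and progenitor transcription factor, at 449 and 337 CPM against 140.4 and 136 CPM in members. Ablim1, an actin-binding protein, and Slco3a1, an organic anion transporter, were the 2 that stood above all 4 other sets in members of both libraries, with Slco3a1 at 185 and 153 CPM in members and at 105 and 94.8 CPM in Cebpe-zero cells.

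Members differed among themselves along the same axis. After thinning to 5000 UMIs, the sum of Mpo, Elane, Prtn3 and Ctsg in a member had a Spearman correlation with the basophil and mast list (without rule genes) of -0.43 over 290 knockout members and -0.50 over 490 control members. With Gata2 the correlations were -0.33 and -0.34, and with the stem and multipotent list -0.48 and -0.52. These are correlations over cells of 1 library each, which share a fixed total of UMIs. Elane ranged from 0 to 65 UMIs per thinned knockout member with a median of 13, and from 0 to 85 with a median of 14 in control.

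A small group of members held Ms4a2. At least 2 UMIs were present in 17 of 290 knockout members (5.86%, 3.45 to 9.22) and 53 of 490 control members (10.8%, 8.21 to 13.9), while 254 and 404 members held 0. The split on Ms4a2 was chosen after its values were seen. Gata2 stood at 301 CPM in the 17 knockout members with Ms4a2 and 65.4 CPM in the 254 without, and at 246 and 54.8 CPM in the matching control members. Gata1, a factor of the erythroid, mast and eosinophil lineages, stood at 41.1 and 4.79 CPM in knockout and at 36.5 and 3.94 CPM in control, and Slc18a2, the histamine transporter of granules, at 144 and 16.6 CPM in knockout and at 81.9 and 13.7 CPM in control. Elane was lower in members with Ms4a2, at 2187 against 3348 CPM in knockout and 1664 against 3837 CPM in control. The levels of Cebpa hardly separated the groups, at 135 and 133 CPM in knockout and 136 and 143 CPM in control.

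**Figure D2:**
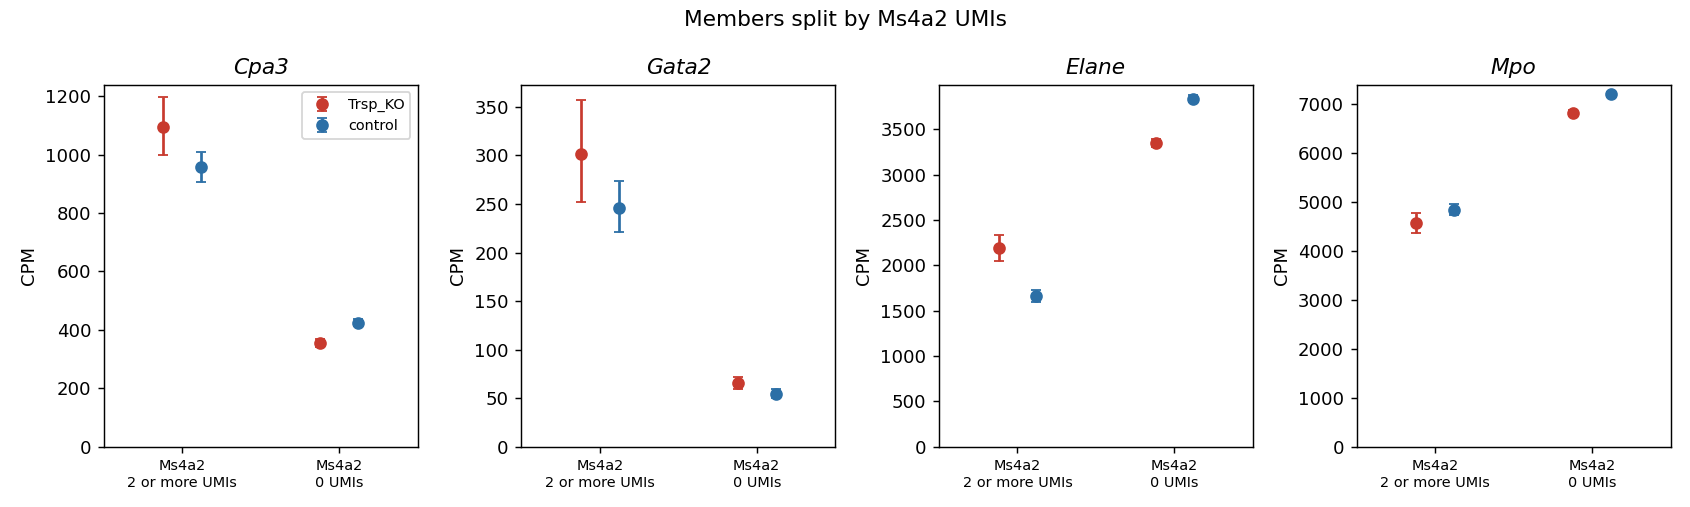
CPM of 4 genes in members with at least 2 and with 0 UMIs of Ms4a2, with the knockout library in red and control in blue. Points are summed levels and bars exact 95% Poisson intervals that cover counting error only. Cpa3 and Gata2 were higher, and Elane and Mpo lower, in the members with Ms4a2 in both libraries.

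As a description of the rule and marker genes and Ms4a2, the start regions of 5 genes were read for GATA letters (AGATAA or TGATAA, either strand) in RefSeq's promoter windows, GRCm38.p6, from 250 bases before to 50 after the gene start. Of Cpa3, Hdc, Cebpe, Fcgr2b and Ms4a2, windows were available for 4, without Cebpe. The letters were present in Cpa3 and Ms4a2, against 18.6% of all 32851 windows. The 250 bases before the start are shown with the GATA letters in capitals.
Cpa3, chr3:20242182-20242431, minus strand: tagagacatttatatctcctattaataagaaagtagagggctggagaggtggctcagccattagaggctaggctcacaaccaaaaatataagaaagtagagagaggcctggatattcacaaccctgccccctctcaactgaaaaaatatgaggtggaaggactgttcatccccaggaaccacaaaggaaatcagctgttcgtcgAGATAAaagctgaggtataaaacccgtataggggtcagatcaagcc
Ms4a2, chr19:11623720-11623969, minus strand: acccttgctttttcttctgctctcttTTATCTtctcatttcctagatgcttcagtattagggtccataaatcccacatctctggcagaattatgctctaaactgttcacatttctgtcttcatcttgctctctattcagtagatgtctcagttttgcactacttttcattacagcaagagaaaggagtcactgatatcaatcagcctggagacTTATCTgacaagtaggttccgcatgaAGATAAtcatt
The Cpa3 window held 1 match and the Ms4a2 window 3, and the C/EBP letters TTGCNNAA were in 0 of the 4 windows, against 10.8% of all windows. These 5 genes were picked with their values known, so the counts of windows are no sign of enrichment, and a match was not tested as a binding site.

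Across the genotypes, 6120 genes were measured in members, meaning at least 20 CPM in 1 library and 30 UMIs over both. Of these, 85 (1.39%) were at least 1.5-fold higher in knockout members and 40 (0.654%) at least 1.5-fold lower, and the median log2 ratio over all 6120 was 0.07. The 6 lowest ratios were those of Ctse and 5 selenoproteins. Of the higher genes, 10 belonged to the list of NRF2 targets.

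Deletion of Trsp in single cells was not measured. Selenoprotein mRNAs, whose proteins need the Trsp tRNA, are described next. Of 24 listed, members had 16 measured, with 8 lower in knockout by 1.5-fold or more, 0 higher, and a median log2 ratio of -0.53. Among all measured genes in members 0.654% were lower. Selenoh, a nuclear selenoprotein, stood at 26.6 CPM in knockout members and 326 CPM in control members, log2 -3.61 (-3.81 to -3.42). Selenow stood at 9.25 and 83.2 CPM, log2 -3.17. Gpx1, the cytosolic glutathione peroxidase, was at 252 CPM in knockout and 1493 CPM in control members, log2 -2.57. Gpx4, which reduces lipid hydroperoxides, was at 115 and 392 CPM, log2 -1.77, followed by Selenop at -1.76, Selenom at -1.61, Selenof at -0.83 and Selenot at -0.66. Txnrd1, a thioredoxin reductase, was at 82.3 and 84.1 CPM, Selenok lay at -0.41 and Msrb1 at -0.23, and Selenos, Sephs2, Selenoi, Dio2 and Txnrd2 lay between -0.05 and 0.39. Below the floor, Selenon was at -1.11, Txnrd3 at -0.73 and Selenoo at 0.07. Gpx3 had 0 UMIs in knockout members and 30 in control members, at least 6.58-fold lower with 3 UMIs in place of 0. The 13 listed genes of selenocysteine synthesis and insertion had 9 measured, 0 past 1.5-fold in either direction and a median of 0.02.

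The difference was seen in most single members. A per-cell sum of 5 mRNAs, Selenoh, Selenow, Selenop, Gpx1 and Gpx4, picked with their values known and thinned to 5000 UMIs, ranged from 0 to 13 UMIs per knockout member with a median of 2, and from 1 to 26 with a median of 11 in control. At least 6 UMIs of this sum were found in 10 of 290 knockout members (3.45%, 1.67 to 6.25) and 471 of 490 control members (96.1%, 94.0 to 97.6). A sum of 6 UMIs is also the 5% quantile of control members, so the control share follows from the cut. The ranges overlapped from 1 to 13 UMIs. The selenoprotein list was lower in the other sets too. The basophil or mast side had 7 of 14 measured selenoproteins lower with a median of -0.66, where 1.06% of all measured genes were lower. The eosinophil side had 9 of 16 with -0.65 (6.66% of genes), the early neutrophil side 8 of 13 with -0.76 (0.728%), Cebpe-zero cells 8 of 13 with -0.62 (1.13%), and all other kept barcodes 8 of 14 with -0.71 (0.657%).

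**Figure D3:**
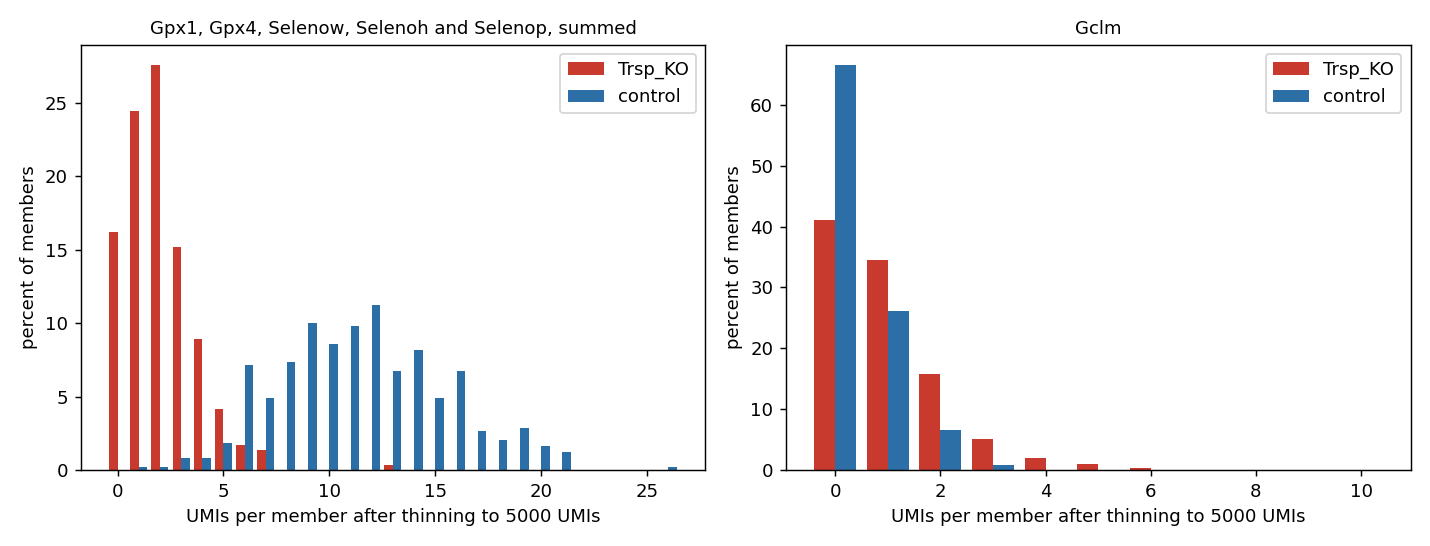
Percent of members of each library (vertical axis) by UMIs per member after thinning to 5000 UMIs (horizontal axis), for the sum of 5 selenoprotein mRNAs at left and for Gclm at right. Knockout members (red) have a median selenoprotein sum of 2 UMIs and control members (blue) of 11, and for Gclm the medians are 1 and 0.

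NRF2 is a transcription factor that turns on genes of glutathione synthesis, detoxification and iron storage under oxidative stress. Of 32 listed targets, members had 22 measured, with 10 higher in knockout by 1.5-fold or more, 0 lower, and a median log2 ratio of 0.43. Among all measured genes in members 1.39% were higher. Gclc and Gstm1 were near the limit and dropped under 1.5-fold, Gclc to 0.52 with cells thinned before the rule and 0.53 with each cell weighted equally, and Gstm1 to 0.45 with thinning and 0.56 with median-of-ratios scaling. Slc7a11, which imports cystine for glutathione, had 218 UMIs in 97 knockout members and 22 UMIs in 18 control members, 24.9 against 1.65 CPM and log2 3.91 (3.28 to 4.62). Both subunits of the enzyme that limits glutathione synthesis were higher. Gclm, its modifier subunit, stood at 212 CPM in knockout and 85.1 CPM in control members, log2 1.32 (1.21 to 1.42), and Gclc, its catalytic subunit, at 58.7 and 37.2 CPM, log2 0.66. After thinning, 59.0% of knockout and 33.5% of control members held a Gclm UMI, and 93.8% and 84.9% before thinning. In B or plasma cells the thinned shares for Gclm were 4 of 21 and 3 of 42, and in T or NK cells 3 of 9 and 3 of 10.

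The other higher targets were Blvrb, a biliverdin reductase, at log2 1.23, Ftl1, the ferritin light chain, Mgst2 at 0.99, Cat, the peroxide-degrading catalase, at 0.95, Abcc1, a glutathione-conjugate exporter, at 0.88, Gsr, glutathione reductase, at 0.79, and Gstm1 at 0.63. Ftl1 stood at 859 CPM in knockout and 429 CPM in control members. Its pseudogene copy Ftl1-ps1 had 7317 and 5408 UMIs and a log2 ratio of 1.04, and reads of near-identical copies may have been divided between them. Below the floor, Nqo1, the classical quinone reductase target, had 54 UMIs in knockout and 8 in control members (log2 3.36, 2.28 to 4.64), Pir 59 and 9, Srxn1 106 and 31, and Hmox1 15 and 4. Me1 had 8 UMIs in knockout members and 0 in control, at least 4.05-fold higher with 3 in place of 0. Tkt, Taldo1, Txn1, Prdx1 and Txnrd1, measured as well, lay between -0.03 and 0.16, and the other 7 measured targets between -0.14 (Gsto1) and 0.44 (G6pdx).

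Of the 10 higher targets, 7 had RefSeq promoter windows, and these were read for TGACNNNGC, the core letters that NRF2 with its small MAF partners is known to bind, on either strand. The letters were in the window of Gclm only, against 12.4% of all 32851 windows. No window was available for Abcc1, Gsr and Gclc. The 250 bases before the Gclm start are shown with the match in capitals.
Gclm, chr3:122245307-122245556, plus strand: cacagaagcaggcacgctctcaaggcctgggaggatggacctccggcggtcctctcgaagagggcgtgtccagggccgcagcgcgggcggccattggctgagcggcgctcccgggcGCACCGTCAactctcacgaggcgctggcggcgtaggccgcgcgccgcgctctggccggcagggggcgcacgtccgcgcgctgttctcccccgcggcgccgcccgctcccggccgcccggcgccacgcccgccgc
The match begins 134 bases before the annotated start and reads TGACNNNGC on the opposite strand.

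The NRF2 targets were also higher in the neighbouring sets. The basophil or mast side had 9 of its 20 measured targets higher with a median of 0.57, where 3.32% of all measured genes were higher. The eosinophil side had 8 of 22 with a median of 0.35 (10.5% of genes), the early neutrophil side 8 of 20 with 0.49 (5.19%), the Cebpe-zero cells 7 of 19 with 0.32 (1.64%), and all other kept barcodes 7 of 21 with 0.52 (1.04%). Slc7a11 had log2 ratios of 3.32, 3.07 and 3.46 in the first 3 of these sets and 3.91 in members, and 6.97 in Cebpe-zero cells on 1 control UMI. Its knockout levels on the early neutrophil side and in Cebpe-zero cells, 19.8 and 18.8 CPM, were under the 20 CPM floor, so it is not among the measured targets there. Gsr was at 0.79 in members, 0.78 on the basophil or mast side, 0.74 in Cebpe-zero cells, 0.49 on the eosinophil side and 0.36 on the early neutrophil side. Whether these differ between sets was not tested.

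**Figure D4:**
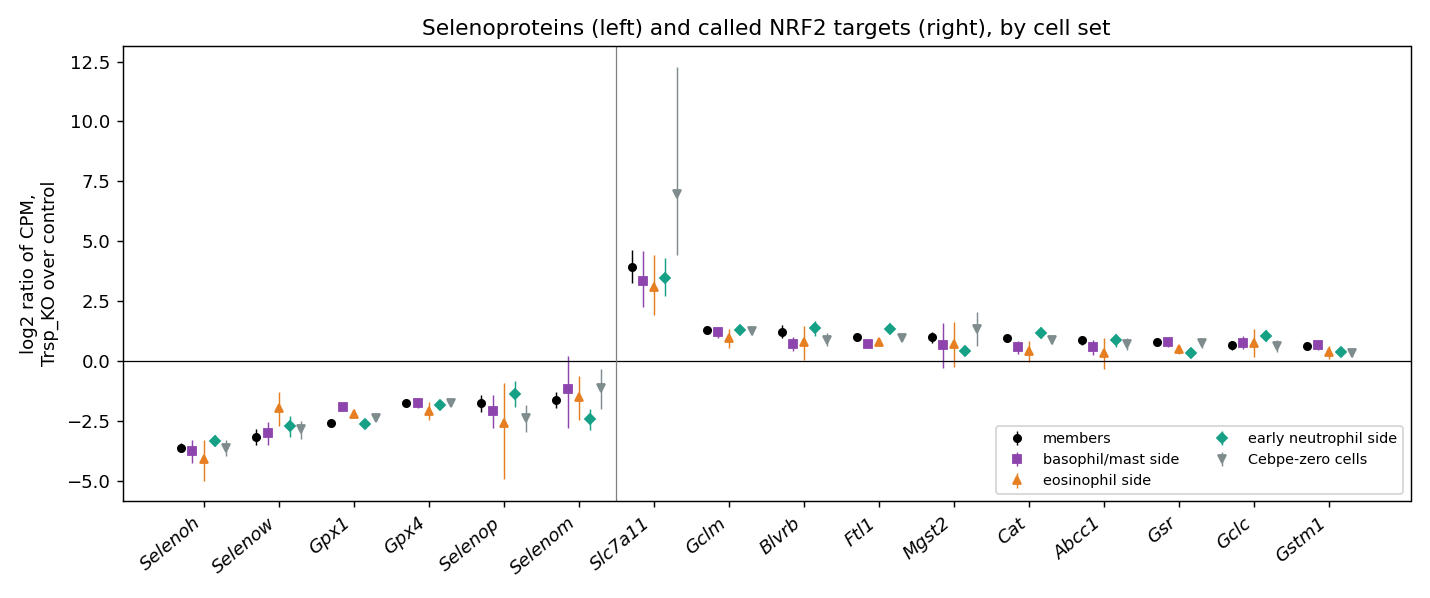
Log2 ratio of CPM, knockout over control (vertical axis), for 6 selenoprotein genes at left and 10 NRF2 targets at right in members (black circles) and 4 neighbouring cell sets. Bars are exact 95% counting intervals of the ratio. In all 5 sets the selenoprotein ratios lie below 0 and the NRF2 target ratios above it, with some intervals that reach 0 on the basophil or mast and eosinophil sides, and the Cebpe-zero value of Slc7a11 rests on 1 control UMI.

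In the granulocyte and stem lists few genes passed 1.5-fold between knockout and control members. All 14 primary granule genes measured stayed within 1.5-fold, with a median of -0.14. Ctsg, cathepsin G, had the lowest ratio, at 2158 CPM in knockout and 3077 CPM in control members, log2 -0.51 (-0.54 to -0.49), while Elane was at -0.15 and Mpo at -0.04. On the early neutrophil side Elane was at -0.75 and Ctsg at -0.67. The stem and multipotent list had 8 measured, 0 past 1.5-fold and a median of 0.08, with Cd34, a progenitor surface protein, at 251 and 242 CPM. The eosinophil list had 4 measured of 14 and 0 past 1.5-fold (Prg2 at 0.50 and Prg3 at -0.42), and the late neutrophil granule list 4 of 16 and 0, with S100a8 at 0.24.

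The basophil and mast list had 12 measured genes, 0 higher, 1 lower and a median of 0.05. The lower gene was Ms4a2, with 149 UMIs in knockout and 463 in control members, log2 -1.03 (-1.31 to -0.76). On the basophil or mast side Ms4a2 was at -0.05, and in Cebpe-zero cells at 0.10. On the early neutrophil side it was at 0.90, from levels of 2.37 and 1.27 CPM. Mcpt8 was at -0.56, Lmo4, a transcription cofactor, at -0.52 and Csrp3 at -0.39 in members, while Gata2 was at 0.07 and Kit, the stem cell factor receptor, at 0.29. Members with at least 2 Ms4a2 UMIs held 130 of the 149 knockout and 430 of the 463 control UMIs of Ms4a2. Within them, Ms4a2 stood at 297 CPM in knockout and 296 CPM in control, levels that follow in part from the cut. The share of such members, given above, was lower in the knockout library, and its part in the ratios of this list was not tested.

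Of the 31 measured granulocyte transcription factors, 1 was at least 1.5-fold higher and 3 lower, with a median of 0.04. Among all measured genes in members 1.39% were higher and 0.654% lower. Tfec was at 41.5 CPM in knockout and 25.9 CPM in control members, log2 0.68. Klf4, a monocyte factor, was at 16.9 and 29.3 CPM (-0.79), Klf2 at 37.5 and 60.8 CPM (-0.70) and Irf8 at 38.1 and 58.2 CPM (-0.61). With predicted doublets removed Irf8 was at -0.17 and Klf4 at -0.45, so neither passed 1.5-fold. Cebpa, Spi1, Runx1, Gata2 and Cebpe lay between -0.08 and 0.09, and Myb at 0.24, Gfi1 at 0.35 and Myc at 0.35. The monocyte list had 5 measured of 16, 0 higher and 2 lower (Klf4 and Irf8), with a median of -0.41, and its summed level was 549 CPM in knockout and 611 CPM in control members.

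In the lists of cytokine receptors and of Fc receptors with their signalling, only Ms4a2 passed 1.5-fold. The 10 measured cytokine receptors included 0 past 1.5-fold, with a median of 0.17 and Csf3r, the G-CSF receptor, the highest at 0.42. Of 10 measured genes of Fc receptors and their signalling, 0 were higher and 1, Ms4a2, was lower, with a median of 0.19. Fcgr2b, at 645 UMIs in knockout and 659 in control members, had a log2 ratio of 0.57 (0.41 to 0.73), just under 1.5-fold. Over the processing alternatives Fcgr2b ranged from 0.453 to 0.593, the highest of which is past 1.5-fold. It was at 0.53, 0.61, 0.61 and 0.57 on the basophil or mast side, the eosinophil side, the early neutrophil side and in Cebpe-zero cells, and at 0.28 in all other kept barcodes. Fcgr3, the activating IgG receptor, was at 0.25, and Fcer1g, the signalling chain, at -0.03.

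Among granule and mediator genes, 12 were measured, 0 were higher and 1 lower, with a median of -0.10. The lower one was Ctse, the aspartic protease cathepsin E (chromosome 1, 131638306 to 131675505), which had the lowest ratio of all 6120 genes. It had 39 UMIs in 30 knockout members and 1006 UMIs in 386 control members, log2 -4.09 (-4.59 to -3.62). On the basophil or mast side it was at -4.15, on the eosinophil side at -4.94, on the early neutrophil side at -4.28 and in Cebpe-zero cells at -3.63. Hdc, which the rule used, was at 0.09, Srgn, the granule proteoglycan, at -0.14 and Alox5ap, a partner of leukotriene synthesis, at -0.02.

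**Figure D5:**
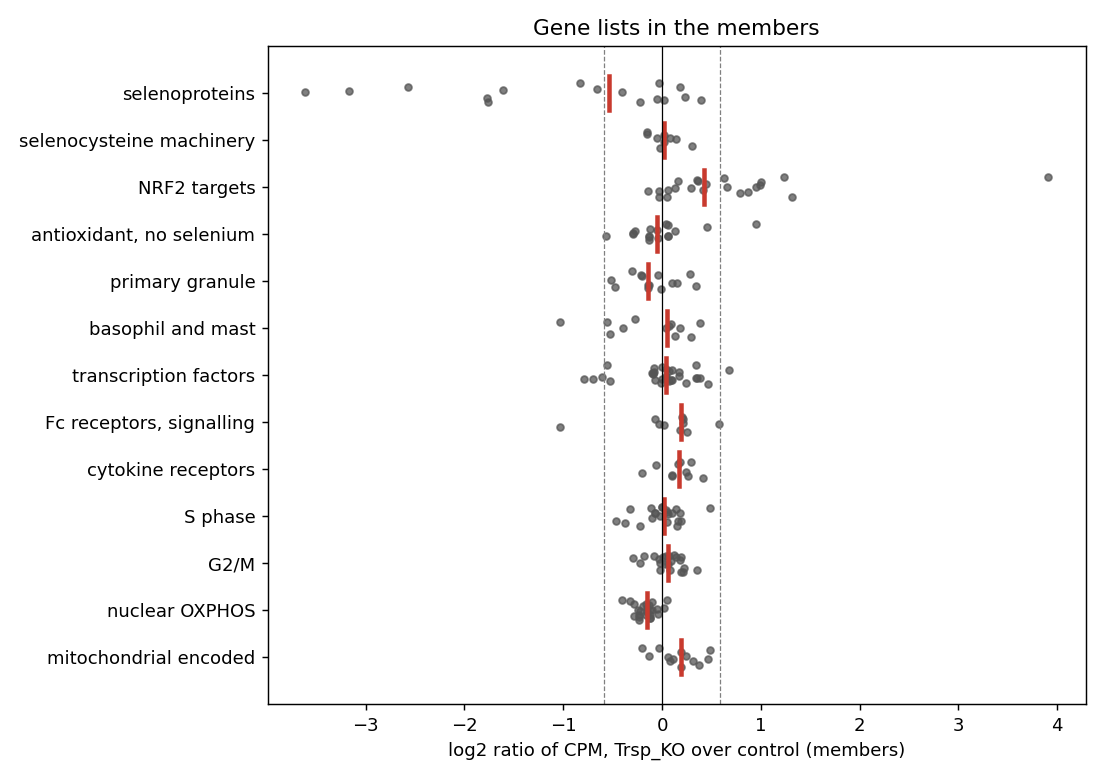
Log2 ratio of CPM, knockout over control (horizontal axis), of each measured gene (grey points) in 13 gene lists in members, with the list median as a red bar and dashed lines at 1.5-fold. Selenoproteins have a median of -0.53 and NRF2 targets of 0.43, and the other lists shown have medians between -0.15 and 0.19. Lists not drawn include monocyte (-0.41), dendritic (-0.30) and cholesterol (-0.21) genes. The B and plasma list and the erythroid list, also not drawn, had 4 measured genes each, with 3 of the 4 higher in each.

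Among lists of general cell functions few genes passed 1.5-fold. None of 22 S phase genes (median 0.02) and none of 22 G2 and M genes (0.06) passed 1.5-fold. The 25 nuclear genes of oxidative phosphorylation had a median of -0.15 and the 13 mitochondrially encoded ones of 0.19, with 0 past 1.5-fold in each. Of 17 measured antioxidant genes without selenium 1, Cat, was higher, with a median of -0.05, and of 12 iron and heme genes Ftl1 and Blvrb were higher. Of 7 measured genes of arachidonate and lipid peroxidation 1, Slc7a11, was higher. Of 13 glycolysis genes 1, Eno1, was higher with a median of 0.16, and of 6 cholesterol genes 0 passed, with a median of -0.21. In the interferon list 5 were measured and 0 passed, with a median of -0.08. The immediate early list had 13 measured and 1, Klf2, lower, with Fos at -0.56, and the stress list 12 and 1, the heat shock gene Hspa1a, lower at -1.20. Of 4 measured p53 targets 0 passed, and Cdkn1a was at 0.19.

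Several of the highest ratios rested largely on a few barcodes or on gene copies. Jchain, Igkc and Ighm, mRNAs of antibody-secreting cells, had log2 ratios of 4.79, 4.16 and 3.53, and 1 knockout member held 94.0%, 81.3% and 79.5% of the knockout UMIs. That member had 8979 immunoglobulin UMIs, 20.9% of its 42894. Without the highest member of each library for the gene, Jchain was at 0.79, Igkc at 1.76 and Ighm at 1.30, still past 1.5-fold. Without the 8 knockout members and 1 control member of at least 20 immunoglobulin UMIs, Igkc was at -0.36 and Ighm at -0.65. Of 10 listed B and plasma genes, 4 were measured, and 3 of them, Jchain, Igkc and Ighm, were higher and 0 lower. The summed list was at 1289 CPM in knockout and 112 CPM in control members. Ms4a1, a B cell gene of that list, was at 0 UMIs in members of both libraries. Car1, an erythroid carbonic anhydrase, was at 4.81, with 94.96% of its knockout UMIs in 1 member, and at 0.73 without the highest member of each library. Of 4 measured erythroid genes 3, Car1, Car2 and Blvrb, were higher. Without the highest member of each library Car2 was at 0.49, under 1.5-fold, and Blvrb at 0.98. The summed erythroid list was at 229 CPM in knockout and 118 CPM in control members.

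Gm20658, annotated as antisense, had 219 UMIs in 114 knockout members and 4 UMIs in 4 control members, log2 6.38. The sources used here do not say whether counting used strand, so reads of an overlapping gene cannot be told apart from it. It was at 6.84 in all other kept barcodes. Histone genes Hist1h2ap (3.04) and Hist1h2ae (1.69), Gm10076 (2.496), Eno1 (1.80) and Rpl35 (1.43) were also higher, and their values in the other kept barcodes were 3.04, 1.64, 2.49, 1.66 and 1.38. These genes have close copies in the genome, so their counts are uncertain. Adgre5, an adhesion receptor, was at 20.9 CPM in knockout and 7.82 CPM in control members, log2 1.42, and 1.22 in the other kept barcodes. Among the lowest, Rnaset2a at -1.62 and Rnaset2b at -1.27 are near-identical copies, and Phpt1, a phosphohistidine phosphatase, was at -1.62, Rpl9-ps6 at -1.29 and Wdr89 at -1.26, against -1.41, -1.38 and -1.29 in the other kept barcodes. The lists of other cell types had few measured genes. The dendritic list had 5 of 14 with a median of -0.30 and 1 lower, Cd74, the megakaryocyte list 5 of 13 with 0 past 1.5-fold, the lymphoid list 2 of 14 with 0 and the T, NK and innate lymphoid list 1 of 12 with 0.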

How the data were processed

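The values are raw counts of UMIs, deposited by the authors as a matrix of 32285 genes by cell barcodes for each library. Per the submitters' processing notes they were made with Cell Ranger 6.1.2 against mm10. For the annotation release and for cell calling, nothing is given in the sources used here. The genotype labels gave the groups. UMIs of members were summed per library and divided by the total (8755842 in knockout, 13298667 in control) to give CPM. A ratio has an exact conditional binomial interval, a sum an exact Poisson interval and a share a Clopper-Pearson interval, at 95%. Code was tested on simulated data. Predicted doublets (Scrublet, scanpy 1.11.5) were left in and removed as an alternative. Named genes were the rule genes and Fcgr2b, measured list genes, the 12 highest and 12 lowest genes at least 1.5-fold apart with an interval that leaves out 0 (sex-linked and mitochondrial genes left out), and the 20 leading genes of members, except items not reported here. Members, lists and comparison sets were chosen with earlier results of these data known. Gene positions are from GENCODE M21 (GRCm38) and promoters from RefSeq. Free RNA enters droplets, and 3′ counts do not tell near-identical copies apart.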

Additional observations from a re-analysis of the deposited data

Results flagged for a closer look

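Cd74, the invariant chain of MHC class II, had opposite directions in members and on the eosinophil side. Its log2 ratio, knockout over control, was -0.83 in members and 5.47 on the eosinophil side, and the difference was not tested. On the eosinophil side Cd74 had 79 knockout and 4 control UMIs. In members 1 knockout cell held 89 of 120 Cd74 UMIs and 1 control cell held 243 of 325. Jchain, Igkc and Ighm were also higher on the knockout eosinophil side, at 7.19, 6.81 and 5.80 on the log2 scale.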

How the results depend on the processing

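Among shares, counts and list medians recomputed under the alternatives, 304 values stayed within their error (for counts of genes, within 1.5 times). A further 35 were classed as moved and 2 as reversed. Among values of single genes 462 stayed within their error, 61 were classed as moved and 5 as reversed. Several list medians near 0 changed sign under at least 1 alternative, namely those of the basophil and mast, stem, megakaryocyte, transcription factor, selenocysteine machinery, S phase, G2 and M, interferon, stress, glycolysis and cholesterol lists. With Cebpe at 2 UMIs or more the members were 3.96% of kept knockout and 5.07% of kept control barcodes, and the dendritic list median was -0.032. Thinning to 10000 UMIs before the rule left out shallower barcodes. It gave shares of 2.36% and 2.51%, a log2 ratio of shares of -0.093, and 158 higher genes. List medians with it were 0.17 (basophil and mast), -0.045 (dendritic), 0.23 (mitochondrially encoded) and 0.22 (G2 and M), with Ighm at -0.11 and Igkc at -0.42. A floor of 100 CPM left 17 higher and 10 lower genes, since fewer were measured, and medians of -0.11 (basophil and mast), -0.046 (monocyte), -0.019 (megakaryocyte), -0.83 (selenoproteins), 0.15 (mitochondrially encoded), 0.073 (stress) and -0.028 (glycolysis). With no floor except 10 UMIs, which let in genes of lower counts, there were 1042 higher and 601 lower genes. List medians were then -0.017 (granule and mediator), 0.66 (NRF2 targets) and 0.13 (interferon). The numbers of genes measured under these alternatives are not given here, so their counts of genes cannot be read as shares. Under 5% mitochondrial UMIs, selenoproteins were at -0.69 and mitochondrially encoded genes at 0.11. With each cell weighted equally the dendritic list was at -0.15 and mitochondrially encoded genes at 0.22. Median-of-ratios scaling gave -0.20 (primary granule), -0.16 (granule and mediator) and 0.12 (mitochondrially encoded). Removing predicted doublets gave -0.19 (monocyte) and -0.10 (dendritic). With lower limits on basophil and eosinophil mRNA (0.05% and 0.1%) Prg2 was at -0.12, against 0.50 as reported. The cause of these shifts was not tested.

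Chosen after seeing the data, leaving out members of 20 or more immunoglobulin UMIs gave a monocyte median of -0.78, mitochondrially encoded genes at 0.22, Ighm at -0.65 and Igkc at -0.36. Totals without Gm42418, Malat1 and mitochondrial genes, also chosen then, gave mitochondrially encoded genes at 0.21. Leaving out the highest member of each library for a gene was a further such choice, given above for Jchain, Igkc, Ighm, Car1, Car2 and Blvrb.

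No paired analysis was possible because each genotype was 1 library, which also means that no library could be left out. Depth limits genes below the floor, and the rule favours deep barcodes. Ms4a2 ranged from -1.29 to -0.76 over its alternatives, Slc7a11 stayed at least 1.5-fold higher and Selenoh, Gpx1 and Ctse at least 1.5-fold lower in every one run.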
